A study of Mus musculus with 50 samples.

Results

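The collagen genes are the 44 genes of the RPKM table, of 37701 in all, whose symbol has the form Col, chain type, a, chain number (Col1a1, Col4a2 and so on). They were selected by symbol alone, and 40 of them reached a mean of 0.5 RPKM over all tumors and entered the tests, which ran on 16733 genes. RNA came from 50 mammary gland (MG) tumors that the authors had selected as EMT-like, from p53R270H/+WAPCre mice, in which Cre, driven by the WAP promoter of mammary epithelium, switches on a heterozygous p53 mutation. Every mouse carried this mutation, the controls included, so tumors of mice without it are not part of the comparison. Female mice, 8 weeks old at the start, were injected subcutaneously every other day with vehicle, insulin, the insulin analogue glargine, the insulin analogue X10, or insulin-like growth factor 1 (IGF1), and tumors were taken at 1 cm3, 24 h after the last injection. There were 10 tumors per treatment, and the tumors titled untreated were taken as the vehicle group that the design text names. Tumors are named by treatment and animal number, as in vehicle_161.

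Collagens are extracellular proteins in which α chains wind into a triple helix. Fibrillar collagens (types I, II, III, V, XI, XXIV and XXVII) build the fibrils of connective tissue, type IV forms the network of basement membranes under epithelium and around vessels, type VI forms beaded filaments, and the FACIT collagens sit on the surface of fibrils. In a MG tumor the stromal cells are known as the main source of fibrillar collagen, and tumor cells that have undergone EMT can express it too.

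Poly-A RNA was sequenced to 26.6 to 51.9 M reads per tumor, with a median of 40.9 M reads. In the tissue check, Vim was between 1094 and 6102 RPKM, whereas the epithelial keratin Krt8 had a median of 173.9 RPKM and was as low as 2.39. Summed epithelial markers (6 genes) were highest in the vehicle_174 tumor (4259 RPKM, median over all tumors 269). Summed basal and skin keratinocyte markers were highest in the X10_105 tumor (3654 RPKM, median 12.3). Skeletal muscle markers were between 2.89 and 4380 RPKM, with their highest value in the glargine_64 tumor. In whole tumors, a change in the number of cells of a type and a change in RNA per cell cannot be told apart.

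Together the 44 genes took 2.15% ± 0.815 of all reads (mean ± SD, n = 50), from 0.775% in the vehicle_161 tumor to 4.54% in the glargine_64 tumor. The 11 fibrillar genes took the most, 1.48% ± 0.701 of reads, followed by the 6 type VI genes with 0.262% ± 0.0941, the 6 type IV genes with 0.148% ± 0.0442 and the 9 FACIT genes with 0.146% ± 0.0765. Col1a1 and Col1a2, the chains of type I collagen, and Col3a1, the chain of type III collagen, made up a median of 56.8% of the collagen reads, between 19.5% and 71.2%. By treatment the share of reads in collagen genes was 2.34% ± 1.05 in vehicle, 2.34% ± 0.662 in insulin, 2.47% ± 0.9754 in glargine, 1.82% ± 0.391 in X10 and 1.79% ± 0.720 in IGF1 tumors (n = 10 each). The X10 tumors had the narrowest range (1.28% to 2.28%), and the ranges of the 5 treatments overlapped.

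The order of the genes depends on the length by which reads are divided. The values of the table are whole multiples of a step per gene, and the length behind that step equals the median length of the annotated transcripts of the gene for 21 of the 44 collagen genes, and the longest transcript for 1 of them (Col10a1). For Col1a1 the divisor was 428 bases, against 5930 bases of its longest transcript, a ratio of 13.9, and for Col4a2 it was 921 of 6450 bases. Over the collagen genes the longest transcript exceeded the divisor by a median of 2.19 times, and over all tested genes by 1.33 times. A comparison of tumors within a gene is not touched by this, but a comparison between genes is.

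Therefore levels between genes are given as reads per kb of the longest GENCODE M21 transcript and per M reads (full-length RPKM). On this scale Col3a1 was highest, with a median of 947 over the 50 tumors (range 146 to 2838 full-length RPKM). Col1a1 followed with 609 and Col1a2 with 551 full-length RPKM, and they ranked 39 and 49 among 16532 genes. In the deposited table, by contrast, Col1a1 had the highest median of all tested genes, 8435 RPKM, whereas Col3a1 had 1667 and Col1a2 had 1645 RPKM. Type VI came next, with Col6a1 at 292 and Col6a2 at 132.2 full-length RPKM, and then Col5a2 (128.1), Col4a1 (125), Col18a1 (91.5), Col12a1 (91.3), Col5a1 (85.0) and Col4a2 (78.2). The ranges of neighbours in this order overlapped over the 50 tumors. At the low end, 22 of the 44 genes had a median under 2 full-length RPKM, as the plot of both length scales shows.

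**Figure D1:**
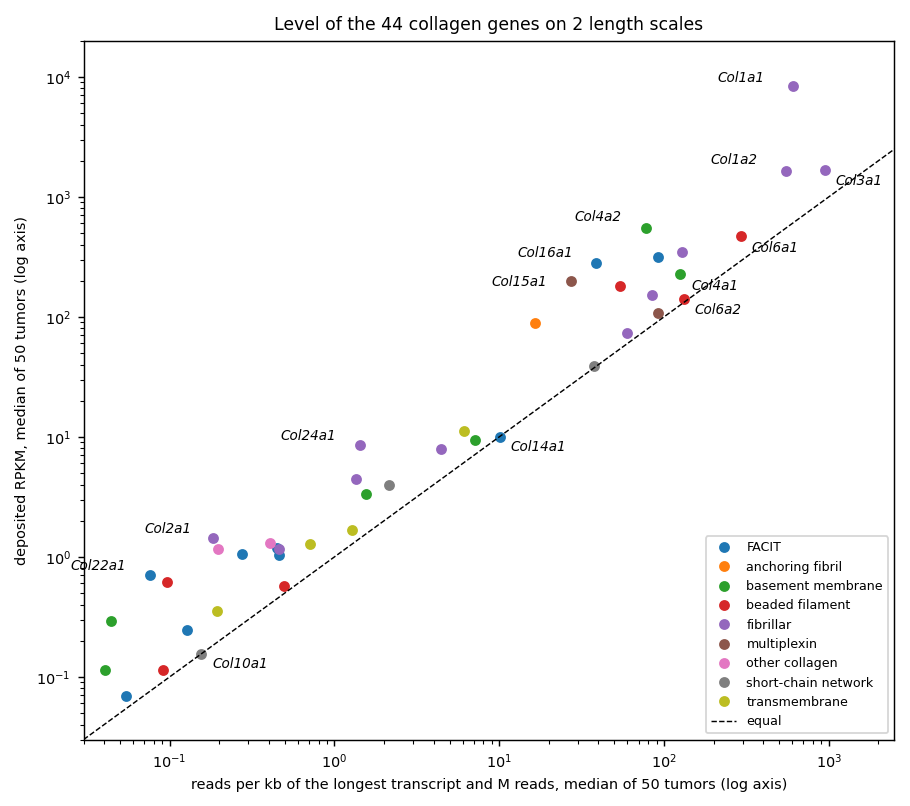
Each point is a collagen gene, colored by class, with reads per kb of its longest transcript and M reads on the x axis and deposited RPKM on the y axis (medians of 50 tumors, log axes); the dashed line marks equal values. Col1a1, Col4a2, Col16a1 and Col15a1 lie far above the line, whereas Col14a1 and Col10a1 lie on it.

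The ratio of chains that share a molecule depended on the length scale too. Type IV collagen of most basement membranes contains the chains of Col4a1 and Col4a2, and in deposited RPKM Col4a1 was below Col4a2 in all 50 tumors, with a median ratio of 0.403. Per full length, Col4a1 was above Col4a2 in all 50 tumors, with a median ratio of 1.55 (1.11 to 1.90). For type I collagen, which contains more α1 than α2 chains, the Col1a1 to Col1a2 ratio had a median of 5.37 in deposited RPKM, 1.16 per longest transcript and 2.43 per union of exons. The spread of each ratio over tumors does not depend on the length: its SD was 0.15 on the log2 scale for Col4a1 to Col4a2, 0.30 for Col6a1 to Col6a2, 0.39 for Col1a1 to Col1a2, 0.83 for Col6a1 to Col6a3 and 1.08 for Col4a5 to Col4a6. Thus the type IV pair was the most even of these, and the X-linked pair the least.

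Collagen genes varied widely between tumors. The SD of log2(RPKM + 0.5) over the 50 tumors had a median of 0.86 over the 40 tested collagen genes and of 0.42 over all tested genes, and it was above 1 for 15 collagen genes (37.5%), against 7.67% of all tested genes. On this scale the steadiest were the FACIT genes Col16a1 (SD 0.39) and Col20a1 (0.41) and the basement membrane gene Col4a2 (0.42). Col16a1 ran from 155 to 602 RPKM with a median of 282, and Col20a1 from 0.413 to 2.72 with a median of 1.03 RPKM. At so low a level the added 0.5 narrows the SD of Col20a1. Its highest tumor was 6.59 times its lowest, against 4.55 times for Col6a1. The largest SDs were those of Col26a1 (1.73), Col2a1 (1.60), Col4a6 (1.56), Col11a1 (1.52) and Col10a1 (1.52).

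For 13 of the 40 tested collagen genes (32.5%) the highest tumor was over 10 times the median tumor, against 8.59% of all tested genes. Col2a1, the fibrillar collagen of cartilage, was 330 RPKM in the glargine_69 tumor and 202 RPKM in the vehicle_182 tumor, while its median was 1.43 and its next value 13.5 RPKM. Col9a1, Col9a2 and Col9a3, which form the type IX collagen that covers cartilage fibrils, were 25.2, 64.8 and 49.2 RPKM in the vehicle_182 tumor, against medians of 0.248, 1.06 and 1.18 RPKM. The same tumor was highest for Col10a1, a marker of hypertrophic cartilage (52.7 RPKM, median 0.155). Its 6 osteoblast markers summed to 62.1 RPKM against a median of 4.26, but Alpl alone was 59.2 RPKM of this sum. Bglap, Sp7, Dmp1 and Ibsp were between 0.480 and 1.01 RPKM, above their medians, and Phex was 0.223, below its median of 0.656 RPKM.

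In that vehicle_182 tumor the 6 chondrocyte markers summed to 52.4 RPKM, above the median of 32.1 and within the range of the other tumors (8.64 to 84.6). Its Sox9 was the highest of all tumors (38.0 RPKM, median 19.5), and its Lect1 was 2.56 against a median of 0.121 RPKM. Its Acan was at the median of 11.7 RPKM. Matn1, Matn3 and Hapln1 were at most 0.120, 0.650 and 0.451 RPKM in every tumor. The epithelial markers of vehicle_182 summed to 1291 RPKM, with Epcam at 243 against a median of 4.75. Its Sox10 was 60.0 against a median of 0.678 RPKM. Sox10 was also above its median in the glargine_63 tumor (22.7 RPKM), where Col9a1 was 34.2 and Col9a2 25.5 RPKM, and in the glargine_69 tumor (11.2 RPKM), where Col9a2 was 24.9 RPKM. The part of other cell types in these values was not tested.

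Col17a1, the transmembrane collagen of hemidesmosomes, was 179 RPKM in the X10_105 tumor and 25.9 RPKM in the vehicle_174 tumor, and at most 3.98 RPKM in the other 48 tumors (median 1.28). These are the tumors with the highest summed basal and skin keratinocyte markers. Krt14 was 2587 RPKM in X10_105 and 2164 RPKM in vehicle_174, against a median of 9.10. Krt5 was 1036 RPKM in X10_105 but 2.61 RPKM in vehicle_174. Trp63 was 29.1 and 9.32 RPKM in the same order (median 0.434). Of the skin markers, Krt10 was 1.32 and 0.969 RPKM (median 1.79), Krt1 0.102 and 0.065, and Lor 0.023 and 0.603 RPKM. Col7a1, the anchoring fibril collagen of skin and other epithelia, was highest in vehicle_174 too (322 RPKM), but with 44.1 RPKM it was below its median of 88.2 in X10_105. The part of basal cells and keratinocytes in these values was not tested.

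Col6a5 was 104 RPKM in the IGF1_158 tumor and at most 3.44 in the other tumors. This tumor was also highest for Col6a1 (1000 RPKM), Col6a2 (403 RPKM) and Col14a1 (52.2 RPKM), and it was the lowest of all for Col12a1 (6.12 RPKM, median 314). Its Acta2, the smooth muscle actin, was the highest of all tumors (656 RPKM, median 64.03), as was the fibroblast marker Dpt (93.4 RPKM, median 15.6). Its 6 fibroblast markers together summed to 393 RPKM, below the median of 434. Pdgfra and Pi16 were also above their medians, and Lum, Dcn and Fap were below theirs. The part of fibroblasts in the values of IGF1_158 was not tested. Col26a1 was highest in the glargine_67 tumor (121 RPKM, median 1.29) and Col4a6 in the insulin_37 tumor (56.8 RPKM, median 3.33).

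Low values gathered in a few tumors as well. The vehicle_161 tumor was the lowest of the 50 for 10 of the 44 collagen genes, among them Col3a1 (256 RPKM, median 1667), Col4a1 (95.6, median 227), Col6a1 (220, median 476), Col6a3 (9.84, median 182.5) and Col15a1 (14.3, median 199). Its fibroblast markers were also the lowest (summed level 79.3 RPKM, median 434), with Dcn at 15.6 and Lum at 2.21 RPKM, while its Vim was 4769 RPKM. In the IGF1_128 tumor Col1a1 (1341 RPKM), Col1a2 (237 RPKM) and Col5a2 (88.8 RPKM) were the lowest of all tumors. The fibroblast markers of IGF1_128 summed to 888 RPKM, above the median. The part of the fibroblasts in these values was not tested.

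**Figure D2:**
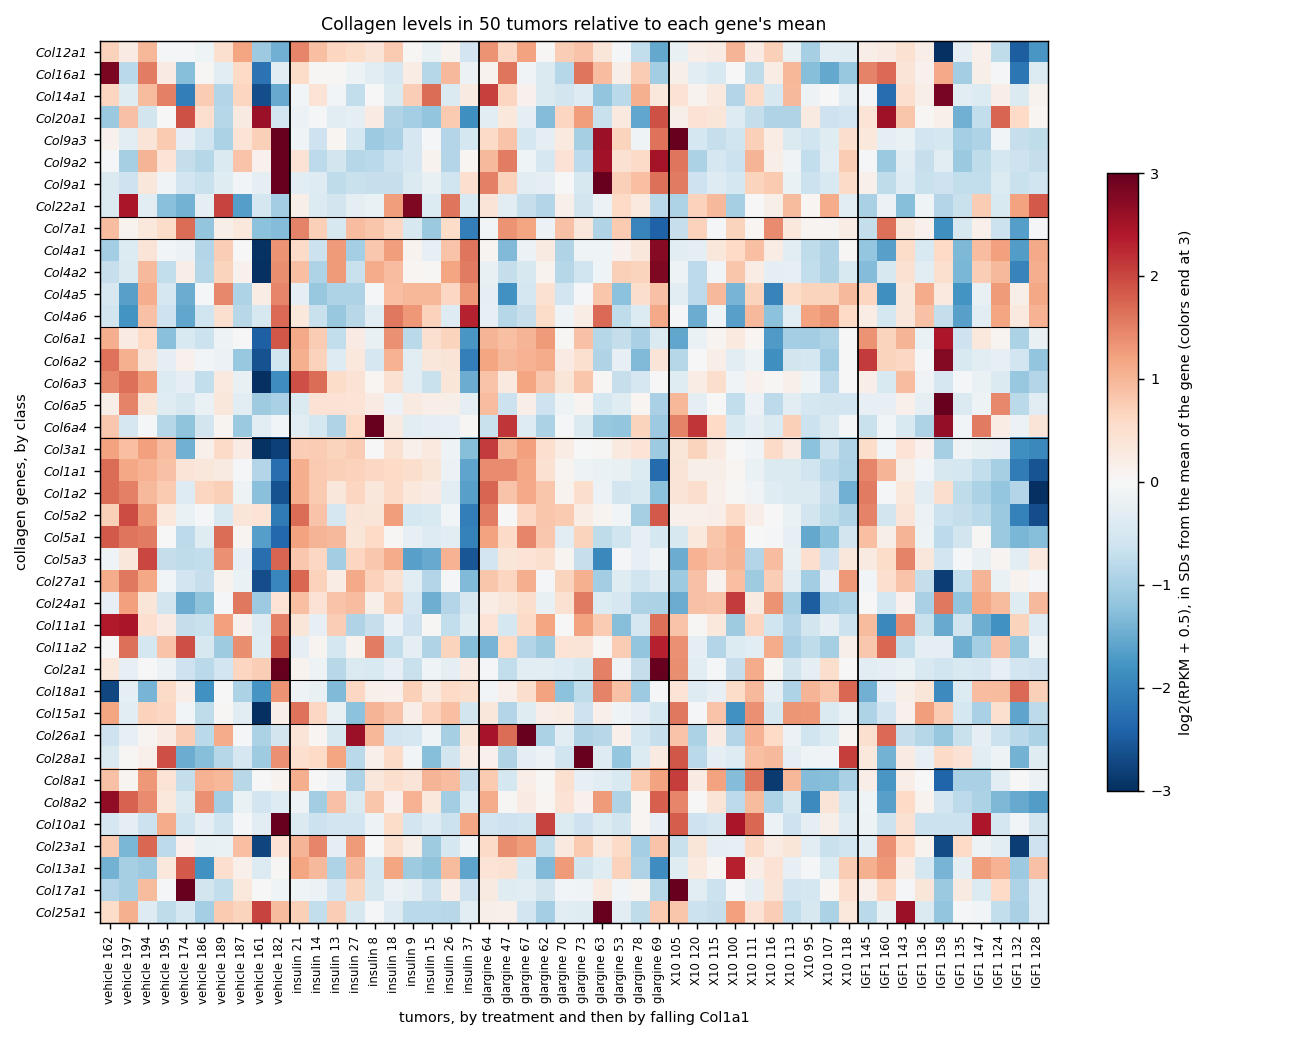
Rows are the 40 tested collagen genes by class, columns the 50 tumors by treatment and then by falling Col1a1, and colors give log2(RPKM + 0.5) in SDs from the mean of the gene. Single dark red cells mark the peaks of Col2a1, the Col9 genes, Col10a1, Col17a1 and Col6a5, and runs of blue cells mark the low type IV, VI and III genes of vehicle_161 and the low fibrillar genes of insulin_37.

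Little of this spread lay between treatments. Between-treatment variance was a median of 8.07% of the total variance over the 40 tested collagen genes and 9.29% over all tested genes. Without any effect, the mean share between 5 groups of 10 would be 8.16%. The median share without an effect was not computed, so these medians have no exact counterpart. The highest shares were those of Col9a2 (25.2%), Col9a1 (23.8%) and Col8a2 (21.9%), the lowest that of Col24a1 (1.42%). In the moderated F test over the 5 groups (limma), no collagen gene had an adjusted p-value under 0.05, where 0.102% of all tested genes had, and 6 had an unadjusted p-value under 0.05, where 13.1% of all tested genes had. The smallest adjusted p-values were 0.228 (Col9a2), 0.258 (Col9a1) and 0.295 (Col8a2). Col10a1, Col9a1 and Col25a1 passed the minimum mean through a few tumors, since their medians were 0.155, 0.248 and 0.356 RPKM.

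Each treatment was then compared with vehicle, to ask whether chronic stimulation of the insulin or IGF1 receptor went with another collagen level. All 4 comparisons use the same vehicle tumors. No collagen gene had an adjusted p-value under 0.05 in any of them (limma, Benjamini-Hochberg over 16733 genes), where 0% of all tested genes had for insulin and for glargine, 0.0657% for X10 and 0.00598% for IGF1. With the unadjusted p-value under 0.05, 2 collagen genes passed for insulin, where 11.1% of all tested genes did, 0 for glargine (6.23%), 2 for X10 (11%) and 7 for IGF1 (8.84%). Both insulin genes were lower (5.17% of all tested genes), and of the X10 genes 1 was higher (2.75%) and 1 lower (8.25%). All 7 IGF1 genes were lower than vehicle, where 4.34% of all tested genes passed in that direction. By limma voom on recovered reads the counts at an unadjusted p-value under 0.05 were 2, 1, 2 and 7 in the same order of treatments, with 0 adjusted calls. The share of all tested genes under voom is not given here, so the voom counts have no background to be read against.

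The median log2 fold change over the 40 tested collagen genes was 0.12 with insulin, 0.09 with glargine, -0.01 with X10 and -0.11 with IGF1, against 0.03, 0.02, -0.03 and 0.02 over all tested genes. These medians moved with single tumors: leaving out each tumor in turn gave -0.02 to 0.21 for insulin, 0.02 to 0.16 for glargine, -0.14 to 0.08 for X10 and -0.33 to -0.02 for IGF1, and the lowest value of each came without the vehicle_161 tumor. In the IGF1 group the classes differed in sign: 8 of 11 fibrillar genes were lower (median log2 fold change -0.40), whereas all 5 tested type VI genes (median 0.27) and all 4 tested type IV genes (median 0.14) were higher, none of the type IV or VI genes with an unadjusted p-value under 0.05. Leaving out each tumor in turn, these 3 medians were -0.55 to -0.33, 0.12 to 0.38 and 0.04 to 0.30, and the number of higher genes went down to 4 of 5 for type VI (without vehicle_161, vehicle_182 or IGF1_143) and to 2 of 4 for type IV (without vehicle_161, IGF1_124, IGF1_128 or IGF1_147). In the insulin group the 4 type IV genes (median 0.32) and the 5 type VI genes (median 0.25) were higher as well, again without such a p-value. Without the vehicle_161 tumor 3 of the 5 type VI genes were higher for insulin, with a median of 0.13. Genes of a class were measured in the same tumors and are not independent replicates.

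Type I and III collagen, the bulk of the fibrils, overlapped between all treatments. Col1a1 was 1672 to 23864 RPKM in the vehicle tumors (median 9917), 2639 to 16249 in the insulin tumors (median 11731), 1629 to 20118 in the glargine tumors (median 7577), 4138 to 10021 in the X10 tumors (median 6309) and 1341 to 20943 in the IGF1 tumors (median 5507). The 10 X10 tumors lay close together inside the range of the vehicle tumors, and 8 of 10 IGF1 tumors lay below the vehicle median. The log2 fold change of Col1a1 was -0.50 ± 0.42 (SE) for X10, with a 95% interval from -1.34 to 0.34 (adjusted p = 0.682, limma; -0.77 without the vehicle_182 tumor), and -0.72 ± 0.42 for IGF1, from -1.56 to 0.12 (adjusted p = 0.666). The interval was -0.73 to 0.95 for insulin and -0.97 to 0.71 for glargine.

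Col1a2 had medians of 2298 RPKM in vehicle, 1865 in insulin, 1856 in glargine, 1318 in X10 and 1099 in IGF1 tumors. All 10 X10 tumors and 9 of 10 IGF1 tumors were below the vehicle median, but 1 IGF1 tumor reached 3987 RPKM and the vehicle tumors went down to 304 RPKM. Its log2 fold change was -0.38 ± 0.38 for X10 (adjusted p = 0.759, limma) and -0.59 ± 0.38 for IGF1 (adjusted p = 0.725). Leaving out each tumor in turn, these were -0.66 (without vehicle_182) to -0.23 (without vehicle_162) and -0.86 (without vehicle_182) to -0.34 (without IGF1_128). Col3a1 had medians of 1867, 1818, 1793, 1568 and 1325 RPKM in the same order of groups. Its largest difference from vehicle was a log2 difference of 0.56 ± 0.36 for glargine (adjusted p = 0.827), with 9 of 10 tumors above the vehicle mean of log2 values. It was 0.30 without the vehicle_161 tumor and 0.31 without the vehicle_182 tumor. For glargine the median RPKM was below that of vehicle while the mean of log2 values was above it, and 2 glargine tumors exceeded all vehicle tumors.

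Col11a1, a chain of the minor fibrillar type XI collagen, and Col5a2, a chain of the type V collagen that starts type I fibrils, had the smallest p-values of the fibrillar genes in the IGF1 comparison. Col11a1 was 2.37 to 80.6 RPKM in the vehicle tumors (median 8.66), 0.295 to 26.7 in the IGF1 tumors (median 2.66), 1.504 to 14.8 in the X10 tumors (median 3.52), 1.86 to 12.8 in the insulin tumors (median 3.97) and 1.11 to 34.7 in the glargine tumors (median 9.84). Insulin, X10 and IGF1 tumors lay mostly in the lower part of the vehicle range, with overlap. Summed osteoblast markers had medians of 5.59 RPKM in vehicle, 3.26 in insulin, 6.81 in glargine, 4.19 in X10 and 3.17 in IGF1 tumors, and were highest in vehicle_197 (66.0 RPKM). Their part in the Col11a1 values was not tested. The log2 fold change of Col11a1 was -1.83 ± 0.61 for IGF1 (adjusted p = 0.361, limma), -1.33 ± 0.61 for X10 (adjusted p = 0.422) and -1.41 ± 0.61 for insulin (adjusted p = 0.392). The tumors vehicle_197 (80.6 RPKM) and vehicle_162 (75.0 RPKM) hold the highest values of all 50 tumors, and these p-values do not pass the threshold.

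Col5a2 was 117 to 906 RPKM in the vehicle tumors (median 400), 215 to 449 in the X10 tumors (median 349) and 88.8 to 712 in the IGF1 tumors (median 241). In the IGF1 group 8 of 10 tumors were below the vehicle median, at a log2 difference of -0.66 ± 0.30 (adjusted p = 0.518, limma). Its partner Col5a1 gave a log2 difference from vehicle of -0.35 ± 0.32 (adjusted p = 0.843) in the same comparison (-0.55 without vehicle_182 and -0.21 without vehicle_162), and Col11a2 of -0.42 ± 0.26 in X10 against vehicle (adjusted p = 0.554).

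Of the network-forming genes, Col8a2, a chain of the hexagonal type VIII network of vessels and cornea, had the smallest p-value of all collagen genes in the IGF1 comparison. It was 1.21 to 51.2 RPKM in the vehicle tumors (median 4.23) and 0.419 to 7.03 RPKM in the IGF1 tumors (median 1.44). The groups overlapped, with 4 IGF1 tumors below all vehicle tumors. The log2 fold change was -1.72 ± 0.53, with a 95% interval from -2.80 to -0.65 (p = 0.00229 unadjusted, 0.330 adjusted, limma). Its partner Col8a1 gave a log2 difference from vehicle of -0.77 ± 0.34 (adjusted p = 0.506), with all 10 IGF1 tumors below the vehicle mean of log2 values.

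For Col4a1 and Col4a2, the chains of most basement membranes, no comparison had an unadjusted p-value under 0.05. Col4a1 was 95.6 to 335 RPKM in the vehicle tumors (median 218), 168 to 361 in the insulin tumors (median 278), 155 to 502 in the glargine tumors (median 226), 174.2 to 295 in the X10 tumors (median 219) and 139 to 324 in the IGF1 tumors (median 232). The X10 tumors lay inside the range of each other group, and the lowest tumor of all was a vehicle tumor and the highest a glargine tumor. In the IGF1 comparison the 95% interval of the log2 fold change ran from -0.32 to 0.42 and in the X10 comparison from -0.26 to 0.48. For insulin the log2 fold change was 0.32 ± 0.19 for Col4a1 (adjusted p = 0.521, limma) and 0.33 ± 0.18 for Col4a2 (adjusted p = 0.504), and each was 0.20 without the vehicle_161 tumor.

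Col18a1, the multiplexin from which endostatin is cut, was the collagen gene with the smallest p-value in the X10 comparison and was above vehicle in each treatment. It was 30.3 to 181 RPKM in the vehicle tumors (median 77.0), 66.8 to 212 in the X10 tumors (median 123.6), 56.0 to 136.3 in the insulin tumors (median 110.6), 58.3 to 192 in the glargine tumors (median 102) and 43.5 to 210 in the IGF1 tumors (median 112.6). The vehicle tumors reached lower than the others, but the upper parts of the ranges overlapped. The log2 fold change was 0.66 ± 0.27 for X10 (p = 0.0170 unadjusted, 0.352 adjusted, limma), 0.51 ± 0.27 for insulin, 0.49 ± 0.27 for glargine and 0.48 ± 0.27 for IGF1. Since the vehicle tumors are shared, these are not 4 separate observations. Col15a1, the other multiplexin, gave a log2 difference from vehicle of 0.58 ± 0.41 for X10 (adjusted p = 0.609) and of 0.62 ± 0.41 for insulin (adjusted p = 0.583), which were 0.20 and 0.24 without the vehicle_161 tumor.

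The type VI genes had no unadjusted p-value under 0.05 in any comparison with vehicle. Col6a1 had medians of 461 RPKM in vehicle, 529 in insulin, 549 in glargine, 399 in X10 and 501 in IGF1 tumors, and its log2 fold changes lay between -0.22 (X10) and 0.23 (IGF1), each with an SE of 0.19. Without the vehicle_161 tumor these limits were -0.33 and 0.11. Col6a2 and Col6a3 had no adjusted p-value under 0.616. Col7a1 had medians of 96.3, 127, 88.5, 89.4 and 64.3 RPKM and Col17a1 of 1.33, 1.14, 1.32, 1.24 and 1.59 RPKM in the order vehicle, insulin, glargine, X10 and IGF1. Their log2 fold changes lay between -0.42 and 0.30 for Col7a1 (SE 0.53) and between -0.39 and 0.36 for Col17a1 (SE 0.54). Single tumors moved these limits. The lower Col7a1 value, for IGF1, was -0.20 without vehicle_174 and -0.68 without IGF1_160, and the upper one, for X10, was 0.52 without vehicle_174 and 0.12 without vehicle_182. The upper Col17a1 value, for X10, was -0.31 without X10_105 and 0.76 without vehicle_174, and the lower one, for insulin, was 0.02 without vehicle_174.

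Among the FACIT genes the type IX genes had lower medians in the IGF1 and insulin tumors than in the vehicle tumors. Col9a2 was 0.293 to 64.8 RPKM in the vehicle tumors (median 1.74) and 0.213 to 1.57 RPKM in the IGF1 tumors (median 0.612). All 10 IGF1 tumors lay below the vehicle median. The log2 fold change was -1.29 ± 0.56 (adjusted p = 0.484, limma). For Col9a3 it was -1.15 ± 0.51 for insulin (adjusted p = 0.403), with all 10 tumors below the vehicle mean of log2 values, a mean that includes the 49.2 RPKM of the vehicle_182 tumor. Without that tumor the log2 fold change of Col9a3 for insulin was -0.70 and that of Col9a2 for IGF1 was -0.79. Col9a1 had a median of 1.47 RPKM in the glargine tumors against 0.294 RPKM in the vehicle tumors, with a log2 difference of 0.96 ± 0.51 (adjusted p = 0.802), which was 1.46 without the vehicle_182 tumor and 0.52 without the glargine_63 tumor. Summed basal and keratinocyte markers had medians of 65.1 RPKM in vehicle, 10.8 in insulin, 11.9 in glargine and 11.1 in IGF1 tumors, and summed epithelial markers of 342, 269, 277 and 134.1 RPKM. Their part in the type IX values was not tested.

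Col12a1, a FACIT collagen of dense connective tissue, was 70.4 to 773 RPKM in the vehicle tumors (median 290), 6.12 to 400 in the IGF1 tumors (median 250), 157 to 995 in the insulin tumors (median 404), 65.5 to 890 in the glargine tumors (median 413) and 106.8 to 669 in the X10 tumors (median 265). The groups overlapped, with 3 IGF1 tumors below all vehicle tumors. The log2 fold change for IGF1 was -1.17 ± 0.53 (adjusted p = 0.512, limma), with 5 of 10 tumors below the vehicle mean of log2 values. It was -0.70 without the IGF1_158 tumor.

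**Figure D3:**
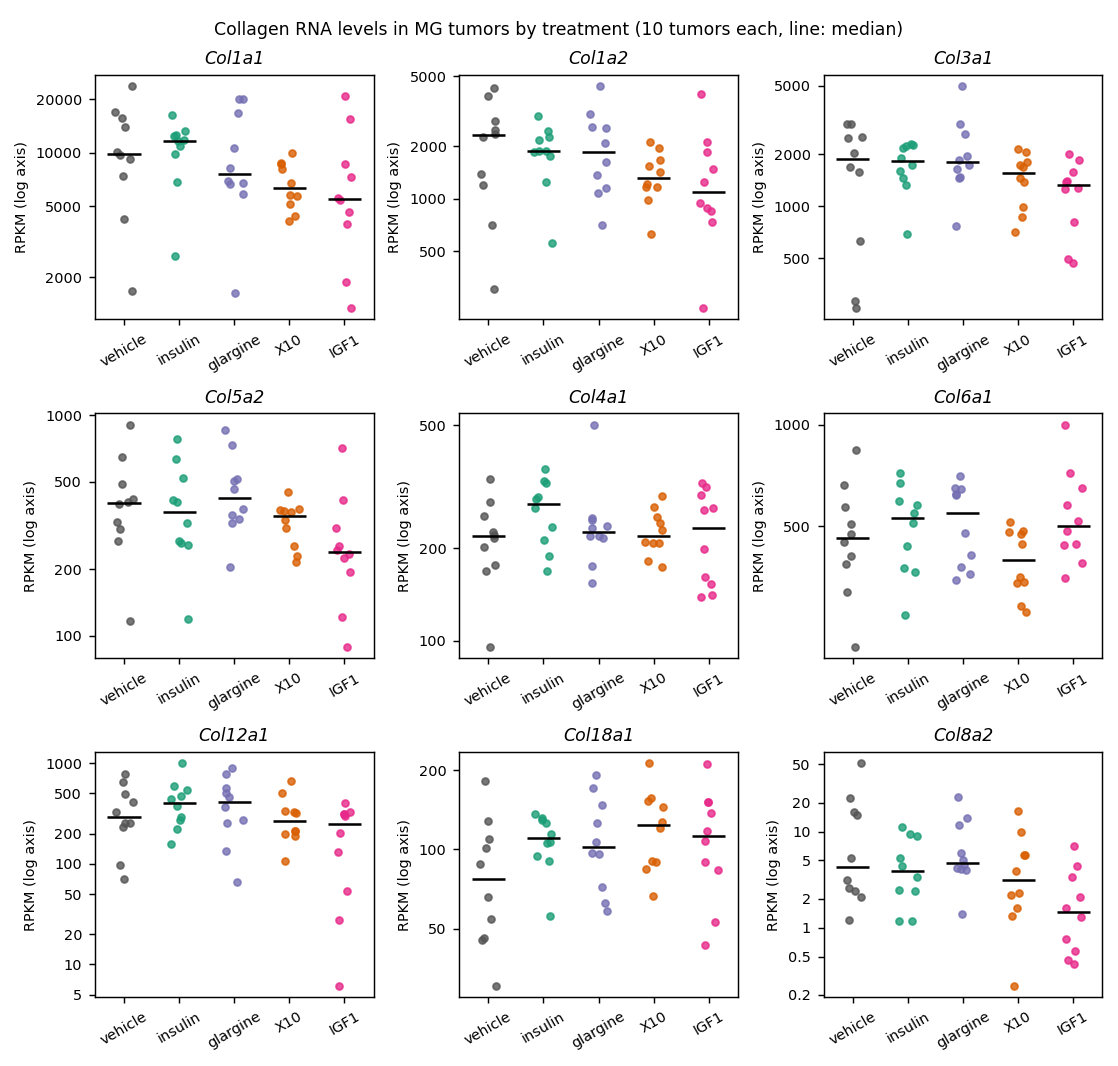
RPKM (y axis, log scale) of 9 collagen genes in the 50 tumors, by treatment on the x axis; each point is a tumor and the line is the median of 10. The groups overlap in every panel, the X10 tumors lie close together for Col1a1, the lowest Col8a2 value belongs to an X10 tumor and the lowest 3 Col12a1 values belong to IGF1 tumors.

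Finally, the 20 tumors of the X10 and IGF1 groups, the compounds with high IGF1 receptor affinity, were compared with the 30 other tumors. No collagen gene had an adjusted p-value under 0.05, where 0.155% of all tested genes had, and 7 had an unadjusted p-value under 0.05, where 10.5% of all tested genes had. All 7 were lower in the X10 and IGF1 tumors, where 7.57% of all tested genes passed in that direction. The 7 genes were Col8a2, Col12a1, Col5a2, Col11a1, Col8a1, Col1a1 and Col1a2. Their log2 fold changes were between -1.05 and -0.48, and their adjusted p-values between 0.193 and 0.440 (limma). The median log2 fold change was -0.10 over all tested collagen genes, -0.36 over the 11 fibrillar genes and -0.02 over all tested genes.

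Col8a2 again had the smallest p-value, at a log2 difference of -1.05 ± 0.35 (p = 0.00394 unadjusted, 0.193 adjusted, limma) and 15 of 20 tumors below the mean of the others. Col12a1 had -0.85 ± 0.34 (-0.61 without the IGF1_158 tumor) and Col5a2 -0.48 ± 0.19, each with 17 of 20 tumors below the mean of the others. Col1a1 had -0.60 ± 0.27, with an interval from -1.15 to -0.06, and 17 of 20 tumors below the mean of the others. These counts of tumors refer to the mean of log2 values. This comparison reuses the tumors of the comparisons with vehicle, and the sequence sample ids of the labels run in the order of the groups, so that id order and treatment cannot be told apart.

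**Figure D4:**
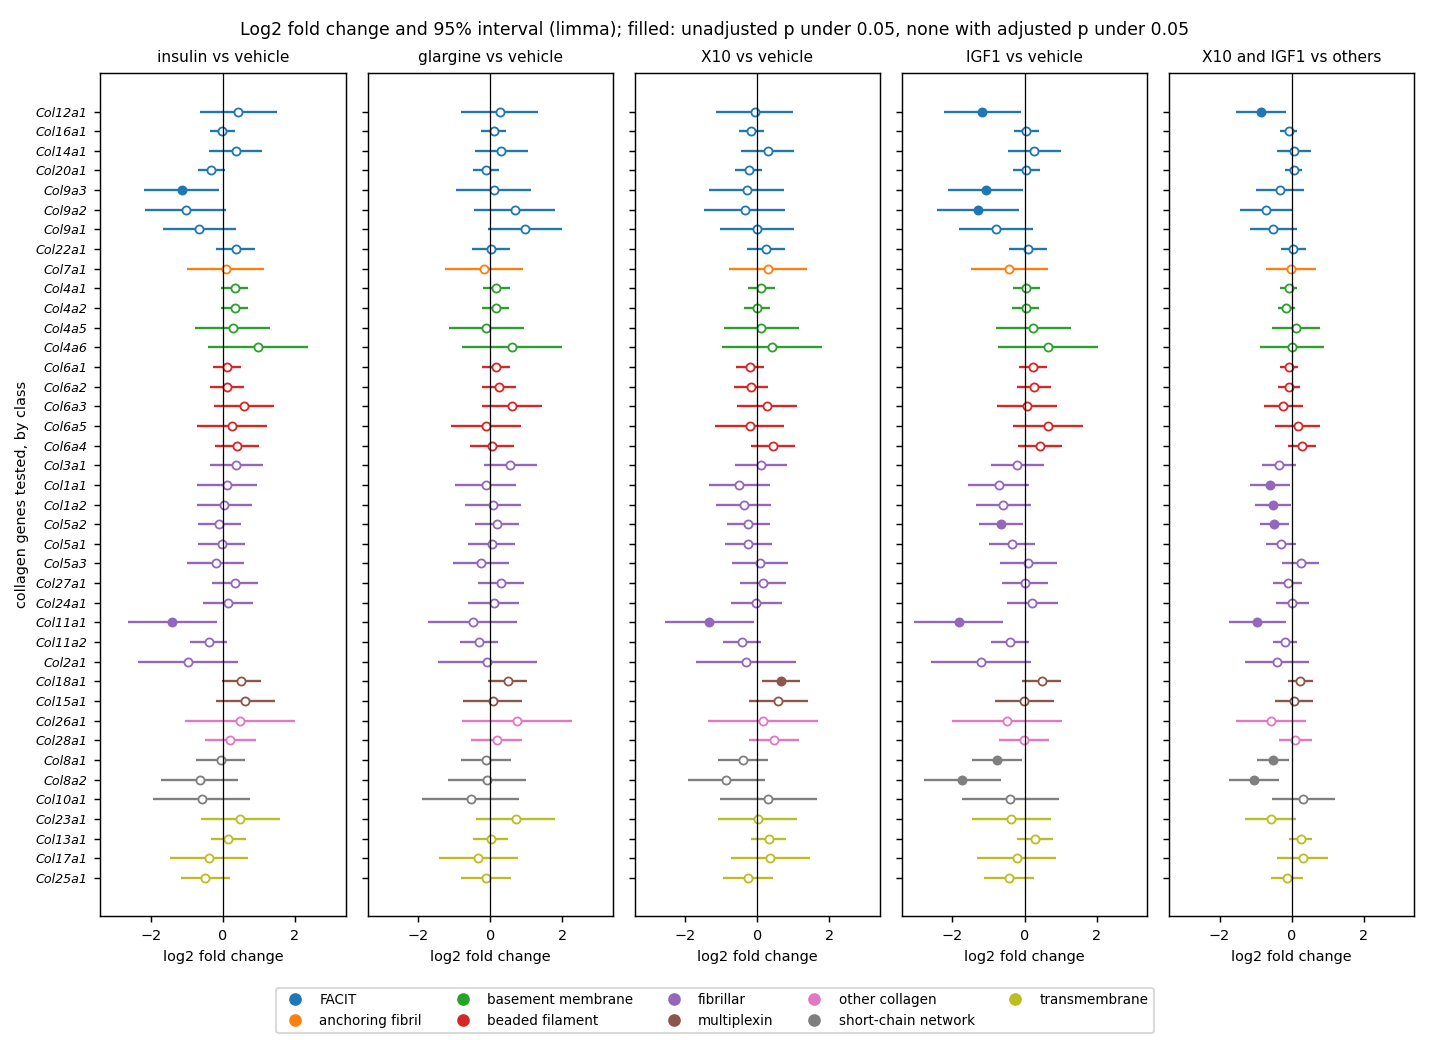
Log2 fold change (x axis) of the 40 tested collagen genes (rows, colored by class) in 5 comparisons; points are limma estimates, lines are 95% intervals, and filled points have an unadjusted p-value under 0.05. The filled points of the IGF1 panel and of the X10 and IGF1 panel, 7 in each, all lie left of 0.

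The genes that make, process, bind and sense collagen were read from the same fit. Of 21 genes for collagen modification and folding, 12 tested genes for procollagen processing and cross-linking, 12 for proteoglycans and glycoproteins on fibrils and 10 tested collagen receptors, none had an adjusted p-value under 0.05 in any comparison. At an unadjusted p-value under 0.05 there were 9 of these 55 genes for IGF1 (4 higher and 5 lower), or 16.4%, against 8.84% of all tested genes. There were 4 for X10 (2 and 2; 7.27% against 11%), 6 for X10 and IGF1 together (1 and 5; 10.9% against 10.5%), 6 for insulin (2 and 4; 10.9% against 11.1%) and 2 for glargine (both lower; 3.64% against 6.23%). Plod3, a lysyl hydroxylase that also adds sugars to collagen, had the smallest p-value for X10: medians of 88.1 RPKM against 104.9 RPKM for vehicle and a log2 difference of -0.34 ± 0.09 (adjusted p = 0.162, limma). Adamts14, a procollagen N-proteinase, had the smallest for IGF1 and for insulin, with medians of 20.8 and 17.9 RPKM against 8.10 RPKM and log2 fold changes of 1.09 ± 0.33 (adjusted p = 0.293) and 1.00 ± 0.33 (adjusted p = 0.301). P4hb, a subunit of prolyl 4-hydroxylase, had the smallest for glargine (log2 fold change -0.33 ± 0.12, adjusted p = 0.789), and P4ha3, a catalytic subunit of that enzyme, for X10 and IGF1 together (-0.52 ± 0.19, adjusted p = 0.246).

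Across the 50 tumors, pairs of chains that build a molecule together were positively correlated, also within treatments. For 12 pairs the correlation of log2(RPKM + 0.5) was tested by permutation (100000 resamples, two-sided, Benjamini-Hochberg over the 12 pairs). Col4a1 and Col4a2 had Pearson r = 0.94 and Spearman rho = 0.92, and Col1a1 and Col1a2 had r = 0.92 and rho = 0.91. Col4a5 and Col4a6 had r = 0.84 and rho = 0.87, and Col6a1 and Col6a2 had r = 0.84 and rho = 0.81. For each of these 4 pairs the permutation p was 1e-05, the smallest that the resamples can give (adjusted p = 1.71e-05), and each gene ranked first among all tested genes by r with its partner.

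With values centred within treatments r was 0.94, 0.91, 0.85 and 0.82 for the same 4 pairs, and without the 2 tumors farthest from the median of the first named gene it was 0.91, 0.91, 0.85 and 0.78. Col1a1 and Col3a1, which share fibrils, had r = 0.81 and rho = 0.82 (permutation p = 1e-05), with r = 0.83 within treatments and 0.80 without the farthest 2 tumors. Col5a1 and Col5a2 had r = 0.68 and rho = 0.66 (permutation p = 1e-05), with 0.67 within treatments and 0.60 without the farthest 2. The low-level pair Col4a3 and Col4a4, with medians of 0.294 and 0.113 RPKM, had r = 0.84 and rho = 0.66 (permutation p = 1e-05), with r = 0.82 within treatments and 0.67 without the farthest 2.

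Other partners of the same molecule were less tightly linked. Col6a3, the large chain of type VI collagen, had r = 0.50 and rho = 0.51 with Col6a1 (adjusted permutation p = 0.000307 and 0.000253), with r = 0.54 within treatments and 0.46 without the farthest 2 tumors, and it ranked 22 among all tested genes by r with Col6a1. Col8a1 and Col8a2 had r = 0.54 and rho = 0.57 (adjusted permutation p = 7.5e-05 and 4.5e-05), with r = 0.47 within treatments and 0.55 without the farthest 2. Of the tested pairs from different classes, Col4a1 and Col18a1 had r = 0.25 and rho = 0.24 (adjusted permutation p = 0.0868 and 0.106), and Col1a1 and Col17a1 had r = 0.12 and rho = 0.05 (adjusted permutation p = 0.380 and 0.752). Within treatments these r were 0.22 and 0.17, and without the farthest 2 tumors 0.19 and 0.07. Col1a1 and Col4a1 had r = -0.31 and rho = -0.27 (adjusted permutation p = 0.0360 and 0.0735), with -0.38 within treatments, but r was -0.14 without the 2 farthest tumors (adjusted permutation p = 0.360). The adjusted permutation p was also above 0.05 with quantile normalization (0.0572) and upper quartile scaling (0.0866). Among pairs that were not tested, Col11a1 and Col8a2 had r = 0.61 and Col12a1 and Col5a2 had r = 0.56, and the 4 genes Col2a1, Col9a1, Col9a2 and Col9a3 had r between 0.72 and 0.91. Over all 780 pairs of tested collagen genes the median r was 0.08, with 58 pairs above 0.5 and 2 pairs below -0.5.

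**Figure D5:**
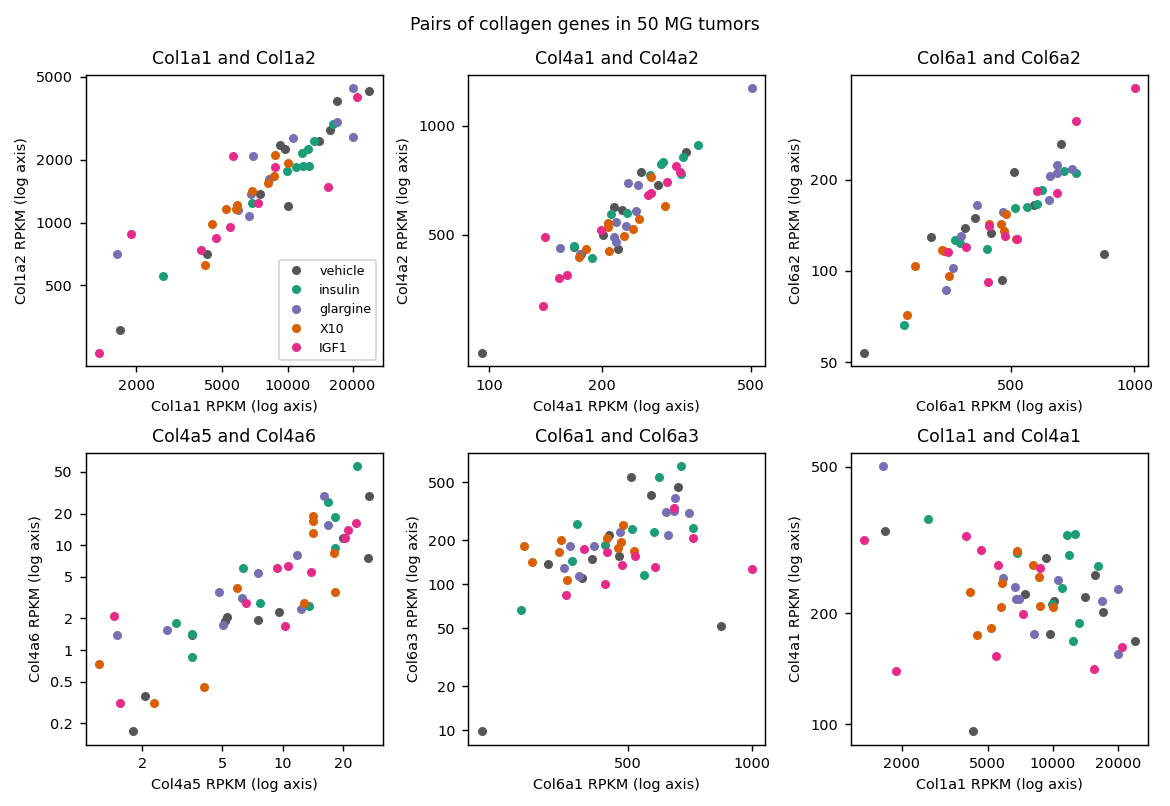
RPKM of 2 collagen genes in the 50 tumors (log axes), colored by treatment. The points of Col4a1 and Col4a2 and of Col1a1 and Col1a2 lie along a line, those of Col6a1 and Col6a3 spread more, and those of Col1a1 and Col4a1 show no line.

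The 4 pairs of partner chains named first lie in different arrangements in the genome. Col4a1 (minus strand) and Col4a2 (plus strand) lie head to head on mouse chromosome 8, and their annotated starts overlap by 22 bases; the methods state the default options of HTSeq, which assign reads by strand. Col4a6 (minus strand) and Col4a5 (plus strand) lie head to head on chromosome X with 1308 bases between their starts. Col6a2 and Col6a1, in contrast, lie in the same direction on chromosome 10, 85161 bases apart, and Col1a1 and Col1a2 are on chromosomes 11 and 6. The sequences before the starts of the 3 pairs that share a chromosome are shown, so that head-to-head starts can be read beside starts in the same direction. They are from RefSeq (GRCm38.p6), read 5′ to 3′ on the strand of the gene, without annotated exons except for the shared Col4a1 and Col4a2 stretch, which is on the plus strand. Capitals mark a CCAAT box (letters CCAAT) or a GC box (letters GGGCGG), each read on either strand. A TATA box (letters TATAAA) was searched too and is not in these stretches.
Col4a1 and Col4a2, shared stretch (chr8:11312805-11312826): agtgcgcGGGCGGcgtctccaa
Col4a5 (chrX:141475169-141475384): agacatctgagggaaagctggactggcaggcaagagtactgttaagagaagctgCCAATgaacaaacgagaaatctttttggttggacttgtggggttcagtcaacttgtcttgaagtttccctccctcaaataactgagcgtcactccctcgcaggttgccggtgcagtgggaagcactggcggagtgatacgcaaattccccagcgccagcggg
Col4a6 (chrX:141474077-141474326): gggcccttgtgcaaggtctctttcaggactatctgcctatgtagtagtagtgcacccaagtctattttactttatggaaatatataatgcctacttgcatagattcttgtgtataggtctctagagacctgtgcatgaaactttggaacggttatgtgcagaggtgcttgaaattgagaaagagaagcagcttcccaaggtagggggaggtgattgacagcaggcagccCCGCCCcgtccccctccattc
Col6a1 (chr10:76726169-76726294): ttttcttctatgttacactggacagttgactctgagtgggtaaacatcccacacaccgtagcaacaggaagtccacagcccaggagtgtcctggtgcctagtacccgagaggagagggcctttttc
Col6a2 (chr10:76623631-76623880): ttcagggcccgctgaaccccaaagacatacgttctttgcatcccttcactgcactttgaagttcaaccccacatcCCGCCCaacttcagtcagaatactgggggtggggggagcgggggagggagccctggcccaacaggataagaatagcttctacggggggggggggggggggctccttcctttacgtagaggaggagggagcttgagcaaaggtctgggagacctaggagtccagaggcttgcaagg

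In these windows Col4a5 had a CCAAT box 196 bases before its RefSeq start, Col4a6 a GC box 21 bases and Col6a2 a GC box 175 bases before the start, and Col6a1 none of these motifs. Shares over promoters were counted on whole windows of 250 bases before the RefSeq starts, annotated exons included, and so on more bases than are printed here for some genes. Of the 38 such windows found for 35 of the collagen genes, 22 (57.9%) held a GC box, 13 (34.2%) a CCAAT box and 5 (13.2%) a TATA box, against 32.7%, 33.8% and 12.4% of all 32851 promoter windows of the same length. Both strands were searched for each motif on its own, so that matches can overlap. These are matches of letters, not sites of binding.

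The genes closest to a collagen gene over the 50 tumors differed by class, as a description without a test. For Col1a1 these were Col1a2, the secreted peroxidase Gpx3 (r = 0.84), the collagen-binding glycoprotein Sparc (0.83), Mmp23 (0.81) and Col3a1. For Col4a1 they were Col4a2 and, far behind, Gse1 (0.64), the sulfate transporter Slc26a2 (0.63), Sparcl1 (0.62) and Fhl5 (0.62). Col6a1 was closest to Col6a2, Maged2 (0.61), Cd276 (0.57), Rrbp1 (0.57) and Tgfb1i1 (0.55). Col17a1 was closest to Gm11597 (0.89), Trim29 (0.85), the keratin Krt16 (0.84), the cornified envelope gene Sprr1b (0.83) and Psca (0.81). Col17a1 exceeded 3.98 RPKM only in X10_105 and vehicle_174, and how far these tumors carry its r was not tested.

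The genes around the minimum of 0.5 RPKM were Col25a1 (mean 0.751 RPKM), Col6a4 (0.960) and Col22a1 (0.990) just above it, and Col4a3 (0.373), Col6a6 (0.203) and Col4a4 (0.137) just below it; Col19a1 was lowest (0.0845). Median reads of these genes were between 12.0 and 54.5 per tumor, against 132252 for Col1a1.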

How the data were processed

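Poly-A RNA of 50 mammary gland tumors was sequenced on the Ion Proton. According to the submitters' notes and the methods, the authors aligned reads with TopHat2 2.0.10 and Bowtie2 to GRCm38, counted with HTSeq 0.6.1, tested with DESeq2 1.2.10, and deposited a table of RPKM values per gene; the methods name DEXSeq for an RPKM table. The deposited RPKM values were used here as they stand. Low values step by whole reads, from which reads (26.6 to 51.9 M per tumor) and the length behind each gene's values were recovered; transcript lengths came from GENCODE M21.

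Log2(RPKM + 0.5) of 16733 genes (mean 0.5 RPKM or more) was fitted in limma 3.58.1 (R 4.3.3, trend) with the 5 treatments, and p-values were adjusted by Benjamini-Hochberg over all of them; an RPKM table calls for this in place of a count model. Fold changes are on this scale and understate those of low genes. Permutation tests used scipy 1.17.1. The scripts were tested on simulated data. The labels give each tumor its own animal number, and p-values measure the spread between tumors.

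The collagen genes, classes, pathway lists and markers were chosen with earlier results of these data known. Named genes were the main fibrillar, type IV, VI, VII, XII, XV, XVII and XVIII genes, the 3 smallest p-values per comparison, the 5 largest and 3 smallest SDs, and the 3 genes on either side of the minimum. Col6a5, Col14a1 and other genes outside these rules that are described for a high tumor were chosen after their values were seen. Alternatives were other pseudocounts, minima and scalings, voom on recovered reads, library size as a covariate, and leaving out each tumor.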

Additional observations from a re-analysis of the deposited data

Results flagged for a closer look

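Within each treatment, the highest or lowest of 10 tumors stood apart from the rest (gap over range above Dixon's 95% critical value) in 28 of 150 combinations of 30 named genes and 5 treatments, or 18.7%. Chance flags about 1 in 20 groups, but some of these genes were named for a large spread, so this share is a description and not a test. In 19 the tumor was high and in 9 it was low.

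The vehicle_182 tumor stood apart for 5 genes, with Col2a1 at 202, Col9a1 at 25.2, Col9a2 at 64.8, Col9a3 at 49.2 and Col10a1 at 52.7 RPKM. The vehicle_161 tumor was low for Col15a1 (14.3 RPKM) and Col4a2 (236 RPKM), and the vehicle_174 tumor high for Col17a1 (25.9 RPKM).

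The insulin_37 tumor was low for the fibrillar genes Col1a1 (2639 RPKM), Col1a2 (556 RPKM), Col3a1 (688 RPKM) and Col5a1 (54.5 RPKM) and for Col6a2 (66.2 RPKM), but high for Col9a1 (1.17 RPKM). Col18a1 was low in insulin_13 (56.0 RPKM), and Col6a4 was high in insulin_8 (5.97 RPKM).

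The glargine_69 tumor was low for Col1a1 (1629 RPKM) and high for Col2a1 (330 RPKM), Col4a1 (502 RPKM) and Col4a2 (1271 RPKM). Col9a1 (34.2 RPKM) and Col25a1 (8.35 RPKM) were high in glargine_63, and Col10a1 (8.03 RPKM) in glargine_62.

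The X10_105 tumor was high for Col17a1 (179 RPKM) and Col9a3 (35.9 RPKM). Among IGF1 tumors, Col25a1 was high in IGF1_143 (3.52 RPKM), Col9a1 in IGF1_145 (0.723 RPKM) and Col10a1 in IGF1_147 (12.5 RPKM).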

How the results depend on the processing

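No collagen gene had an adjusted p-value under 0.05 in any comparison under any alternative run. Of 383 results by setting, leaving out tumors aside, 372 were labelled the same as the main result. Changes of the median log2 fold changes were judged against a spread of 0.29. The median for X10 against vehicle, near 0, ran from -0.03 to 0.04 over the settings, so its sign was not stable. The count at an unadjusted p-value under 0.05 was 1 for insulin with library size as a covariate or a mean RPKM of at least 5, and 4 with quantile normalization; 1 for glargine with voom or a pseudocount of 0.1; 5 for X10 with all nonzero genes and 1 with library size as a covariate; and 3 for any of 5 groups with a mean RPKM of at least 5 and 9 with all nonzero genes. The Col1a1 and Col4a1 correlation was -0.28 with quantile normalization, -0.25 with upper quartile scaling and -0.14 without the 2 farthest tumors. The cause was not tested. Leaving out each tumor gave 2 to 4 genes for insulin (4 without insulin_27 or vehicle_174), 0 to 3 for glargine (3 without vehicle_182, 2 without glargine_70, and 1 without glargine_62, glargine_67, glargine_73, glargine_78, vehicle_174 or vehicle_195), 0 to 4 for X10 (4 without X10_105, 0 without vehicle_162, and 1 without X10_95, X10_113, X10_116, X10_118, vehicle_182 or vehicle_197) and 4 to 10 for IGF1 (4 without IGF1_128, IGF1_132 or vehicle_194). It gave 5 to 9 for X10 and IGF1 together and 4 to 7 for any of 5 groups. The shares of all tested genes in these alternative fits are not given here. These counts therefore describe how far the main counts move, and are not results about the collagen genes. No paired analysis was possible because the groups share no replicate numbers. Genes with few reads per tumor, such as Col19a1, limit what can be detected.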

Other observations

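The genes closest to 3 other collagen genes over the 50 tumors are given as a description; these 3 genes were chosen after their values were seen. Col12a1 was closest to Lrrc15 (r = 0.87), Spon1 (0.80), the fibril proteoglycan Lum (0.78), Cped1 (0.78) and the tenascin Tnn (0.78). Col9a2 was closest to Col9a1 (0.91) and Col9a3 (0.90), followed by the proton pump subunits Atp6v1b1 (0.89) and Atp6v1c2 (0.89) and the transcription factor Tfap2c (0.89). Col2a1 was closest to 3110079O15Rik (0.88), Chadl (0.87), Lect1 (0.80), Chad (0.80) and Sox8 (0.79), of which Lect1 and Chad are known from cartilage. Col2a1 exceeded 13.5 RPKM only in glargine_69 and vehicle_182, and how far these tumors carry its r was not tested.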
